A study of Mus musculus with 3 samples.

Results

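In this study 10 genes of the hypoxia-inducible factor (HIF) system were followed in cultured mouse muscle: the factor genes Hif1a and Epas1, the oxygen-sensing hydroxylase genes Egln1 and Egln3, and the classic targets Vegfa, Ndrg1, Pdk1, Ddit4, Adm and P4ha1. They were found by symbol in a gene table of 24401 loci, and 10 of 10 were present. Levels are in FPKM, fragments scaled to transcript length and library size. Of the 10 genes, 9 had a mean of at least 1 FPKM over the libraries, as did 11211 single-symbol genes in all, and Epas1 did not. The cells were C2C12, a mouse myoblast line, grown to a full layer and turned into myotubes over 72 hours with 2% horse serum and insulin at 1 µg/ml. They then spent 24 hours in DMEM (control), in medium conditioned for 24 hours by S2-013, a human pancreatic cancer line, or in that medium plus resveratrol, a polyphenol made by plants, at 50 µM. Each of the 3 conditions is 1 library, so no difference below has a replicate behind it and no SD or p-value was computed here. A culture with resveratrol but without conditioned medium was not analysed here, so resveratrol was present only on top of the cancer cell medium.

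HIF-1 and HIF-2 are transcription factors made of an oxygen-labile alpha subunit, encoded by Hif1a or Epas1, and the stable partner Arnt. When oxygen is present, the prolyl hydroxylases of the Egln family mark the alpha subunit, the von Hippel-Lindau protein binds it and the proteasome degrades it. When oxygen is short, or when other signals stabilise the subunit, HIF binds DNA and raises genes for blood vessel growth, anaerobic glucose use and collagen modification. Egln1 and Egln3 are themselves targets, which closes a feedback loop. In skeletal muscle the pathway is known from exercise and from injury. Because the alpha subunit is controlled mainly as protein, RNA of Hif1a does not report the activity of HIF, and the targets are read beside it.

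The core sequence bound by HIF is ACGTG or GCGTG. It was searched on both strands in the RefSeq promoter windows (250 bases before to 50 after the start, build GRCm38.p6, which shares its chromosome coordinates with mm10), where 8 of the 10 genes had an entry. Of these windows, 4 are shown, ending 10 bases after the start, because their genes differed in the values below: Egln1 at chr8:124949245-124949504 (minus strand), Pdk1 at chr2:71872974-71873233 (plus strand) and P4ha1 at chr10:59323046-59323305 (plus strand) were highest in conditioned medium, whereas Vegfa at chr17:46032368-46032627 (minus strand) was not. They were chosen after the values were seen. Each is written 5′ to 3′ on the strand of its gene, and capitals mark the core on either strand.
Egln1: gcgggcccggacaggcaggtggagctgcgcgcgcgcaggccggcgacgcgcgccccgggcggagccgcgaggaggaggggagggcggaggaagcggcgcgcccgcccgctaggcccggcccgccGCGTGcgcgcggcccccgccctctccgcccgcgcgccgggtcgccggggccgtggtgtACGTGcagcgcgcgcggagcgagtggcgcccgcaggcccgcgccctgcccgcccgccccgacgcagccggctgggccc
Pdk1: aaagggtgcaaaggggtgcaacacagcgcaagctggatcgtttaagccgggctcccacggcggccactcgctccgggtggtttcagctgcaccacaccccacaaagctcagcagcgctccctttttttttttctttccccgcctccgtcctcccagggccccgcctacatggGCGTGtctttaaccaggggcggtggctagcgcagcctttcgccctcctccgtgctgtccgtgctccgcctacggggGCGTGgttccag
P4ha1: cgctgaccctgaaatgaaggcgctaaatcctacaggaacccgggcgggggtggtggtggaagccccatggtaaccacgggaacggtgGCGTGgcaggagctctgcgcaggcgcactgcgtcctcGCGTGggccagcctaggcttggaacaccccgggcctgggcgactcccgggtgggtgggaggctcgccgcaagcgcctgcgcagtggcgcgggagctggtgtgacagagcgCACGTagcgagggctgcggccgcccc
Vegfa: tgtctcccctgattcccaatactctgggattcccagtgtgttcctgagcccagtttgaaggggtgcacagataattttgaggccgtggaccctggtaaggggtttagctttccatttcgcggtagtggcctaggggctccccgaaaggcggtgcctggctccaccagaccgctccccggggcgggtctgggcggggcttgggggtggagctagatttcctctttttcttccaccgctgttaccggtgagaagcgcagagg

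Egln1 held GCGTG at position -126 and ACGTG at -68, counted from the start at 1 with no position 0 and given for the leftmost base. Pdk1 held GCGTG at -78 and at -2. P4ha1 held GCGTG at -163 and -126, and ACGTG on the other strand at -16. The first window of Vegfa held no match, while a window at a second annotated start inside the gene held 2. Of the other members, Hif1a had 3 matches, of which 2 overlap in 1 palindromic CACGTG, a sequence that basic helix-loop-helix factors share, and Ddit4, Adm and Egln3 had 2, 2 and 1. The full Hif1a window, at chr12:73907617-73907916 (plus strand), lies inside the gene, whose deposited span begins at 73901382. Bases at the beginning of that span were not searched. Ddit4, with its 2 matches, was like Vegfa not highest in conditioned medium. In all, 7 of 8 first windows held a match, and bases further upstream were not searched. The same letters were found in 43.8% of all 32851 windows and in 62.8% of the 10912 windows of genes with a mean of 1 FPKM or more, so these letters are common in promoters. A match is a run of letters here, not a measured binding site.

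**Figure D1:**
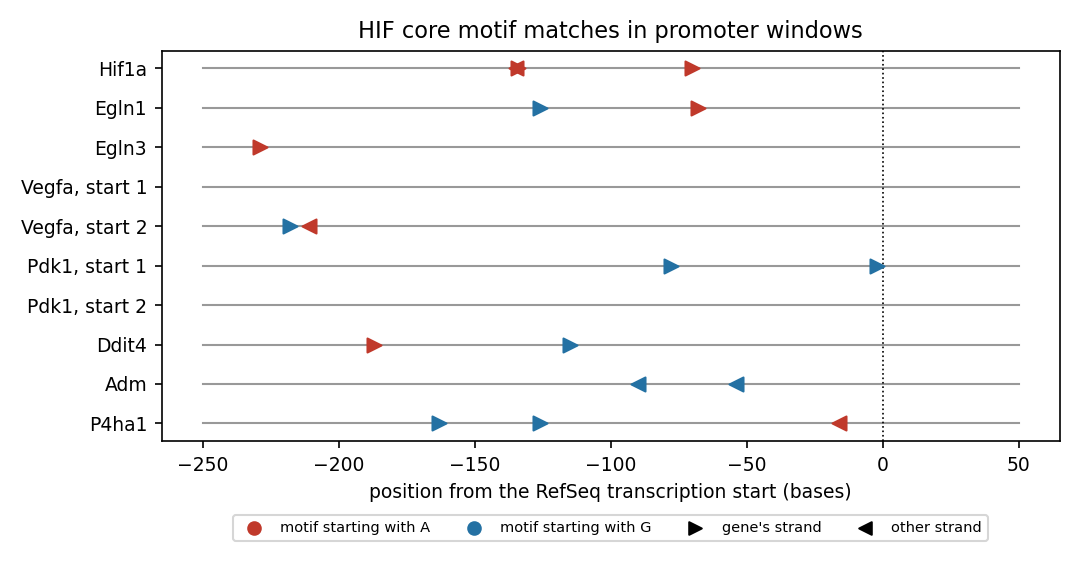
Matches to the HIF core in the promoter windows of 8 genes, by distance in bases from the RefSeq start. Arrowheads give the strand and colour the first letter of the motif. The first Vegfa window and the second Pdk1 window hold none, and all other windows hold 1 to 3.

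Of 10 myotube markers, 9 matched by symbol, and all 9 stood at 1 FPKM or more in each of the 3 libraries, although the labels call the cell type myoblast. Endothelial markers summed to between 0.13 and 0.443 FPKM. The 4 macrophage genes summed to between 1.20 and 1.90 FPKM, with 1 of them at 1 FPKM or more in each library. Ptprc and Adgre1 among them were listed at 0 in the 3 libraries. The 5 epithelial genes summed to between 1.42 and 3.26 FPKM, also with 1 at 1 FPKM or more in each library. Read depth is unknown, because FPKM carries no count. Between 78.4% and 83.0% of summed FPKM lay in loci of 200 bases or less. Rescaling to TPM, in which each library sums to the same total, over all loci shifted the median of all genes by 0.15 (log2) for conditioned medium over control, and rescaling over longer loci only shifted it by -0.084. Members are read against that uncertainty below.

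The first comparison asks how the HIF genes stood in myotubes kept in cancer cell medium. Of the 10 genes, 7 were higher there and called so in the authors' deposited table, from Ndrg1 at the top to Ddit4 at the bottom, and 0 were called lower. The table calls 25.8% of its tested loci higher and 29.9% lower in this comparison, and 9 of the 10 genes were tested. Differences are given as log2((FPKM + 1)/(FPKM + 1)), and a size rule asks for an absolute log2 ratio of 1 or more at a mean of 1 FPKM or more. By that rule 0 members were higher and 0 lower, where 1.78% and 0.624% of all genes were. The median log2 ratio of the 9 genes past 1 FPKM was 0.36, against -0.012 over all genes. The quantity compared is RNA in bulk, in which fewer cells of a type and less RNA per cell cannot be told apart.

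**Figure D2:**
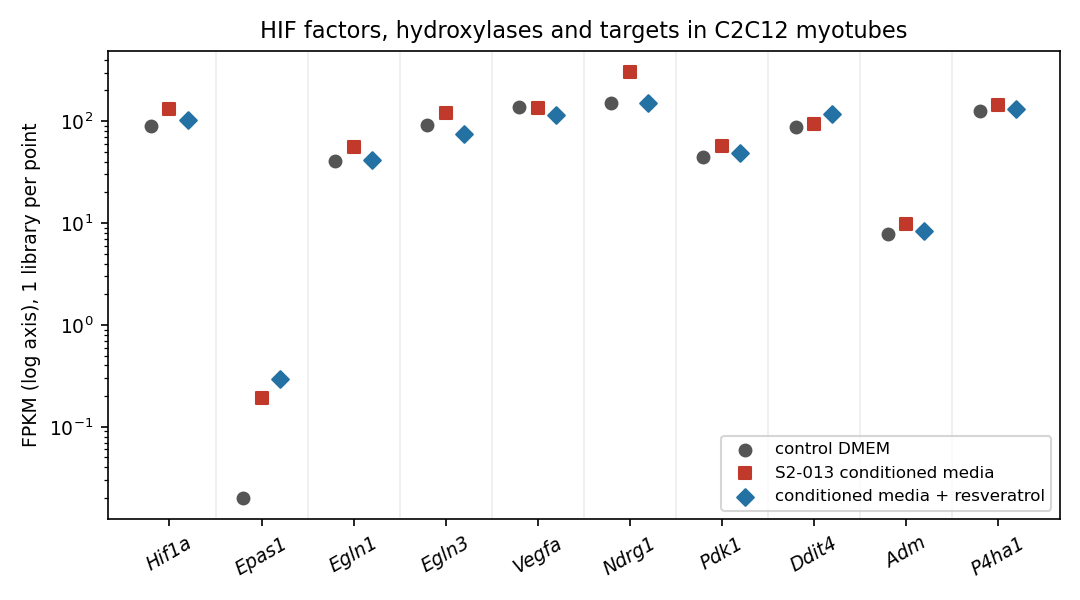
FPKM of the 10 genes on a log axis, with 1 point per library: control DMEM (grey circles), conditioned media (red squares) and conditioned media with resveratrol (blue diamonds). The red square is the highest of the 3 points for 7 genes, and Epas1 lies below 1 FPKM throughout.

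By mean FPKM, which is per length, the members ranked Ndrg1, P4ha1, Vegfa, Hif1a, Ddit4, Egln3, Pdk1, Egln1, Adm and Epas1, and without replicates no neighbours in that order can be told apart by their spread. Of the 2 factor genes, Hif1a carried nearly all of the RNA. It stood at 89.5 FPKM in control, 131 FPKM in conditioned medium and 103 FPKM with resveratrol. The conditioned medium library was thus the highest and control the lowest, with a log2 ratio of 0.54 between them, and 7.92% of all genes had a ratio as high or higher. The authors' deposited table calls this difference (q = 0.000148). Hif1a lies on chromosome 12, positions 73901382 to 73947530 of mm10, and overlaps Gm49321 on its own strand and Gm15283 on the opposite strand in GENCODE M21. No source used here gives the strand setting, so reads of these neighbours cannot be told apart from its own. Epas1, which encodes HIF-2α, was at 0.0201, 0.190 and 0.293 FPKM in the same order. The authors' deposited table lists it as not tested, and at these levels no difference is read from it. Of the other subunit genes, Arnt stood at 22.0, 28.8 and 30.6 FPKM, and Hif3a at 0.0372, 0.0406 and 0 FPKM.

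The hydroxylase genes Egln1 and Egln3 were both higher in conditioned medium. Egln1 encodes PHD2, the main oxygen sensor of the pathway, and was at 41.0 FPKM in control, 55.2 FPKM in conditioned medium and 41.3 FPKM with resveratrol. Egln1 lies on chromosome 8, positions 124908587 to 124949254, and Egln3 on chromosome 12, positions 54178981 to 54203874. The Egln1 control and resveratrol libraries were nearly level and the conditioned medium library was above both (log2 ratio 0.42). Egln3 encodes PHD3, the form most readily induced by hypoxia in many cells, and was at 92.2, 119.6 and 74.2 FPKM. Conditioned medium was again the highest (log2 ratio 0.37), but here the resveratrol library was below control. The authors' deposited table calls both higher in conditioned medium. Egln2, the third family member and not a usual HIF target, had 15.9, 14.2 and 16.4 FPKM. In this comparison it is without a call in the authors' deposited table. Per length of transcript, Egln3 RNA was 2.25 times that of Egln1 in control, 2.16 times in conditioned medium and 1.80 times with resveratrol.

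Among the targets, Ndrg1 differed most. This stress-responsive gene was at 152 FPKM in control, 303 FPKM in conditioned medium and 151 FPKM with resveratrol. The conditioned medium library stood well above the other 2, which were nearly level. Its log2 ratio of 0.99 was just under the size rule, and 1.84% of all genes had a ratio as high. Ndrg1 lies on chromosome 15, positions 66929318 to 66969641, and overlaps Gm17035 and Gm2895 on the opposite strand. Within its family, Ndrg2 was also highest in conditioned medium, at 13.1, 40.5 and 19.4 FPKM, whereas Ndrg4 was at 59.9, 41.1 and 16.7 FPKM and Ndrg3 at 25.1, 21.0 and 23.6 FPKM.

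Pdk1, the kinase that switches off pyruvate dehydrogenase, was at 44.4, 57.2 and 48.8 FPKM. The conditioned medium library was the highest (log2 ratio 0.36, called in the authors' deposited table). The deposited span of Pdk1, chromosome 2 from 71389248 to 71903858, is one that 9 loci share, among them Hat1 and Itga6. P4ha1, the catalytic subunit of collagen prolyl 4-hydroxylase (chromosome 10, positions 59323277 to 59373304), was at 126, 145 and 133 FPKM. Its spread was narrow, with conditioned medium again the highest (log2 ratio 0.20, called in the authors' deposited table). Adm, which encodes the vasodilator peptide adrenomedullin (chromosome 7, positions 110627669 to 110629819), was the least abundant member past 1 FPKM, at 7.82, 9.71 and 8.28 FPKM. Its order of libraries was the same, but its log2 ratio of 0.28 has no call in the authors' deposited table (q = 0.0699), and Gm28863 overlaps it on the opposite strand.

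Vegfa and Ddit4 did not share that order. Vegfa, the main angiogenic growth factor (chromosome 17, positions 46016993 to 46032377), was at 138, 134 and 114 FPKM. Control and conditioned medium were close (log2 ratio -0.044, q = 0.302 in the authors' deposited table), and the sign turned to 0.15 after rescaling to TPM over all loci. Ddit4 encodes REDD1, which restrains mTORC1, at positions 59949675 to 59951824 of chromosome 10, and was at 86.7, 94.1 and 118 FPKM. Conditioned medium was a little above control (log2 ratio 0.12), which the authors' deposited table calls (q = 0.0135, lost at a q-value limit of 0.01). That ratio ran from 0.027 to 0.30 under the 2 TPM rescalings, and the resveratrol library was the highest. Of the 9 genes past 1 FPKM, Vegfa was highest in control, Ddit4 with resveratrol and the other 7 in conditioned medium. Of the 11211 genes past the filter, 25.9% had their highest value in conditioned medium. Both of the first comparisons use that library, so a deviation of this 1 library would enter both.

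The second comparison sets the resveratrol library against the one with conditioned medium alone. Among the members, 7 were lower with resveratrol and called so in the authors' deposited table, and 1, Ddit4, was called higher, among 9 tested. The table calls 29.5% of its tested loci lower and 34.1% higher. By the size rule 1 member was lower and 0 were higher, against 4.6% and 1.43% of all genes. The median log2 ratio of the 9 genes was -0.23, against 0.030 over all genes. The sign of each of these 9 ratios stayed the same after rescaling to TPM over all loci or over longer loci, and after centring on the median of all genes. The other settings tried (pseudocounts, filters and sums over loci) could not turn the sign of a member.

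**Figure D3:**
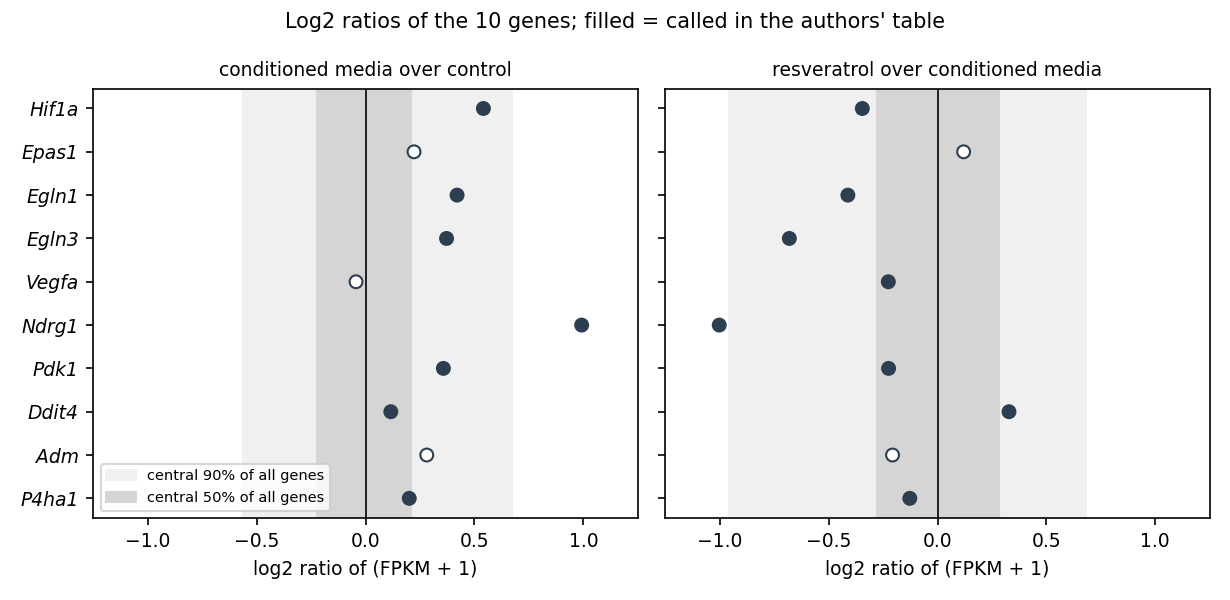
Log2 ratios of (FPKM + 1) for the 10 genes in the first comparison (left) and the second (right), with the central 50% and 90% of 11211 genes shaded. Filled points are called in the authors' deposited table. Ndrg1 lies outside the central 90% in both panels, and the right panel has Ddit4 and Epas1 above 0.

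Ndrg1 again had the largest difference, with a log2 ratio of -1.002 that met the size rule by a small margin and missed it at a pseudocount of 5 and after rescaling to TPM over all loci. Of all genes, 4.58% had a ratio as low. Egln3 came next, from 119.6 to 74.2 FPKM (log2 ratio -0.68), with 9.56% of genes as low. Egln1 had a log2 ratio of -0.41, Hif1a of -0.35 and Vegfa of -0.23. Pdk1 stood at -0.22 and P4ha1 at -0.13. The authors' deposited table calls each of these 7 lower, while that for Adm (-0.21) is not called (q = 0.187). Apart from Ndrg1, Egln3, Egln1 and Hif1a, these differences lay inside the central 50% of all genes, which ran from -0.28 to 0.28. Ddit4, with a log2 ratio of 0.33, lay above that range.

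Markers of dividing or reserve myoblasts differed in both comparisons, but in conditioned medium not all in the same direction. Of 6 such genes past 1 FPKM, the authors' deposited table calls 5 higher in conditioned medium (median log2 ratio 0.27) and 6 lower with resveratrol (median -1.49). The 5 were Mki67, Top2a, Ccnb1, Cdk1 and Notch3. Myf5 was lower in conditioned medium (log2 ratio -0.22), without a call (q = 0.0953). Pax7, the other listed gene, was under that filter. The lowest value in the list was 1.04 FPKM in control, 0.699 FPKM in conditioned medium and 0.271 FPKM with resveratrol. It calls 25.8% of all tested loci higher and 29.9% lower in conditioned medium, and 34.1% higher and 29.5% lower with resveratrol. The myoblast list of 7 genes summed to 143, 179.8 and 52.9 FPKM. The 9 measured myotube markers summed to 3027, 2869 and 4269.8 FPKM, of which the most abundant marker alone gave 1568, 1496 and 2272.5 FPKM. Of these 9, 3 were called higher and 5 lower in conditioned medium. With resveratrol 7 were called higher and 2, Ckm and Ttn, lower. Of the 5 fibroblast genes 3 were past 1 FPKM, and the authors' deposited table calls these 3 higher in conditioned medium (median 0.79) and 2 of them, Col1a1 and Dcn, lower with resveratrol. Col1a1 was at 899, 1056 and 527 FPKM, lowest with resveratrol, whereas Dcn at 27.8, 48.9 and 43.6 FPKM and Pdgfra at 4.98, 9.86 and 6.98 FPKM were lowest in control. The part of such shifts in the HIF gene differences in either comparison was not tested.

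Against control, the resveratrol library had 4 members called higher (Hif1a, Pdk1, Ddit4 and P4ha1) and 2 called lower (Egln3 and Vegfa) among 9 tested in the authors' deposited table, which calls 34.1% of tested loci in each direction. By the size rule 0 members were higher and 0 lower, against 3.43% and 4.86% of all genes. Ddit4 had the largest log2 ratio, 0.44, and Egln3 the lowest, -0.31. Ndrg1 (-0.010) and Egln1 (0.0086) were close to control, and the authors' deposited table calls neither. The median of 0.073 turned to -0.077 after rescaling to TPM over longer loci. Signs of Egln1, Pdk1, Adm and P4ha1 turned with it, and that of Ndrg1 turned after rescaling over all loci. This comparison shares its libraries with the other 2.

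The other genes of the pathway were taken from 13 lists of 127 genes, 114 of them past 1 FPKM, chosen with earlier results of these data known. In conditioned medium, 53 of the 112 that were tested were called higher and 27 lower in the authors' deposited table, where 25.8% and 29.9% of all tested loci are. With resveratrol 33 were called higher and 51 lower, where 34.1% and 29.5% of all tested loci are. The 27 called lower in conditioned medium and the 33 called higher with resveratrol are thus near or under the shares of all loci. Target lists of metabolism and matrix leaned the way most of the 10 genes did. Of 9 mitochondrial and pH targets, 9 were called higher in conditioned medium (median log2 ratio 0.57) and 7 called lower with resveratrol (median -0.48). They include Bnip3, a mitophagy receptor, at 184, 364 and 291 FPKM, and Car12, a carbonic anhydrase, at 8.30, 19.2 and 5.57 FPKM. Ero1l, which forms disulfides in the endoplasmic reticulum, was the exception with resveratrol, at 99.97, 185 and 221 FPKM.

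**Figure D4:**
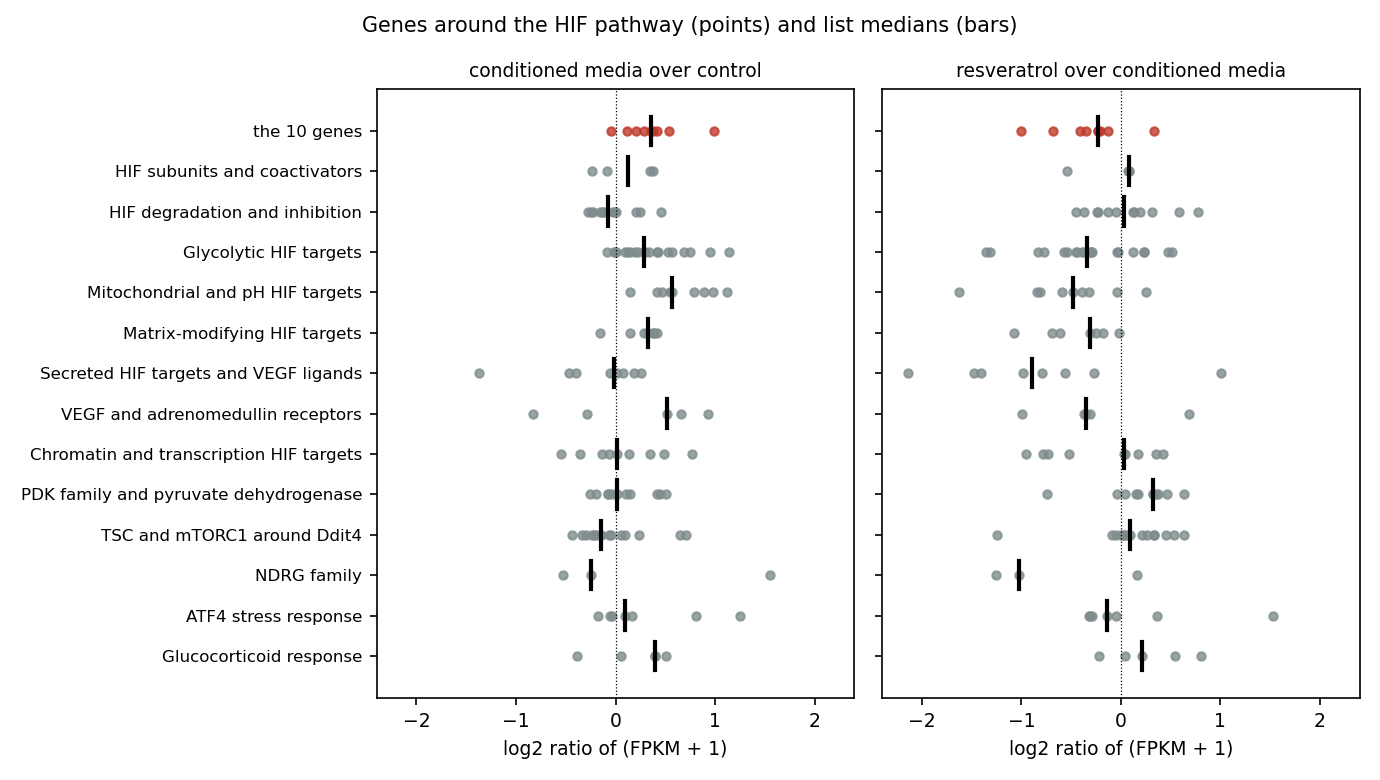
Log2 ratios of (FPKM + 1) for single genes with a mean of 1 FPKM or more (points) and list medians (bars), for the first comparison (left) and the second (right). The 10 genes are in red. Bars of the glycolytic, mitochondrial and matrix target lists lie above 0 on the left and below 0 on the right.

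Of 20 glycolytic targets, 15 were called higher and 1 lower in conditioned medium (median 0.29), and 5 higher and 13 lower with resveratrol (median -0.34), by the authors' deposited table. The shares over all tested loci are 25.8% and 29.9% in the first comparison, and 34.1% and 29.5% in the second. Gbe1, the glycogen branching enzyme, was at 14.2, 32.5 and 18.6 FPKM and passed the size rule in the first comparison. Pfkp, a phosphofructokinase, and Slc16a3, a lactate exporter, passed it in the second, Slc16a3 at 56.8, 76.0 and 29.9 FPKM. Pgk1 was also highest in conditioned medium, at 856, 1002 and 982 FPKM, but its difference with resveratrol (log2 ratio -0.029) has no call in the authors' deposited table. Not all targets shared this order. Ldha was at 829, 822 and 666 FPKM, with control and conditioned medium close, and the glucose transporter gene Slc2a1 at 101, 94.9 and 136 FPKM, highest with resveratrol.

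The 7 matrix-modifying targets beside P4ha1 had 5 called higher and 1 lower in conditioned medium (median 0.32) and 6 called lower with resveratrol (median -0.31) in the authors' deposited table. Of all tested loci, 25.8% are called higher and 29.9% lower in conditioned medium, and 29.5% lower with resveratrol. P4ha2, the sister subunit of P4ha1, was at 82.1, 107 and 50.5 FPKM, with a log2 ratio of -1.07 for the second comparison. P4ha1 RNA was 1.54 times that of P4ha2 in control, 1.36 times in conditioned medium and 2.63 times with resveratrol, per length of transcript. Lox, the collagen cross-linking enzyme, was at 524, 639 and 418 FPKM.

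Most genes in the list of secreted targets and VEGF ligands were lower with resveratrol. The list holds relatives of Vegfa beside the targets, and Vegfc is among those called lower. Of 7 tested genes in that list, 6 were called lower and 1 higher in the authors' deposited table, where 29.5% and 34.1% of all tested loci are. The median was -0.89 over the 8 past 1 FPKM. The 1 called higher was Angptl4, at 94.4, 36.0 and 73.0 FPKM. Its log2 ratio was -1.37 for conditioned medium over control and 1.002 for resveratrol over conditioned medium. Edn1, endothelin 1, was at 5.205, 5.28 and 0.429 FPKM, Vegfc, a lymphatic growth factor, at 15.5, 16.5 and 5.60 FPKM, and Stc2 at 3.90, 4.86 and 1.10 FPKM. Between the resveratrol and conditioned medium libraries Vegfa had a log2 ratio of -0.23 and its relative Vegfc one of -1.40. In conditioned medium the list had a median of -0.019, with 1 called higher and 3 lower of 8 in the authors' deposited table, and the sign of that median turned with TPM over all loci and without a filter. The shares over all tested loci there are 25.8% higher and 29.9% lower. Of the receptors, Kdr, the main VEGF receptor of endothelium, was close to 0 in every library, and Calcrl, the adrenomedullin receptor, was at 4.09, 7.001 and 11.8 FPKM with its partner Ramp2 at 1.97, 4.63 and 1.84 FPKM.

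Genes listed for HIF degradation and inhibition, with Siah1a, Siah1b and Siah2 among them, were called about as often as all loci. Not every gene of that list is read here as one that restrains HIF. Of 11 tested, 2 were called higher and 3 lower in conditioned medium, and 3 higher and 3 lower with resveratrol, in the authors' deposited table, where the shares over all tested loci are 25.8% and 29.9%, and 34.1% and 29.5%. Hif1an, which encodes FIH, the asparaginyl hydroxylase that blocks the coactivator site, was at 17.2, 14.4 and 25.2 FPKM and Cited2, which competes with HIF for p300, at 49.6, 68.3 and 103 FPKM. Both were highest with resveratrol, unlike Egln1 and Egln3. Vhl was at 24.8, 22.6 and 24.9 FPKM. Chromatin and transcription targets had medians near 0 in both comparisons (0.0097 and 0.030), whose signs turned under other settings, with Ankrd37 at 19.2, 12.8 and 6.13 FPKM and Zfp395 at 10.7, 19.0 and 11.0 FPKM.

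Relatives and partners of single members differed from them in places. With resveratrol the authors' deposited table calls 34.1% of all tested loci higher and 29.5% lower. Of 11 tested genes of the pyruvate dehydrogenase list, it calls 8 higher and 1 lower (median 0.32). The 1 called lower was Pdk3, at 22.1, 29.7 and 17.4 FPKM, which ranked its libraries with conditioned medium first, as Pdk1 did, while Pdk4 was at 9.56, 10.7 and 17.2 FPKM. Around Ddit4, its paralogue Ddit4l was at 4.07, 7.25 and 2.49 FPKM, with conditioned medium highest. Of the 15 genes of the TSC and mTORC1 list, 6 were called higher and 1 lower with resveratrol in the authors' deposited table, where 34.1% of all tested loci are called higher and 29.5% lower, so the share called higher is near that of all loci. The list includes Eif4ebp2, a translation repressor, at 25.2, 22.5 and 35.4 FPKM. Ddit4 is also known to answer to ATF4 and to glucocorticoids. Of 7 ATF4 response genes, the authors' deposited table calls 2 higher and 3 lower with resveratrol, which is near the shares over all loci. The 2 called higher were Ddit3, which encodes CHOP, at 46.6, 82.3 and 239 FPKM, and Atf4 itself, at 271, 239 and 309 FPKM, while the other 5 had ratios below 0. Of 5 tested glucocorticoid response genes, it calls 3 higher and 1 lower, with Fkbp5 at 10.8, 8.04 and 14.8 FPKM. The part of either pathway in the level of Ddit4 was not tested.

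Ndrg1 had the largest ratio of the 10 genes in both of the first comparisons, and the genes most like it were sought in a set of 8898 whose mean reached 5 FPKM, by the distance over its 2 log2 ratios. The nearest were Pxylp1 at 9.82, 19.7 and 9.36 FPKM (distance 0.056), Ip6k3 at 8.71, 18.9 and 9.41 FPKM (0.079), Gng11 at 6.92, 13.9 and 6.87 FPKM (0.11), Gem at 7.85, 16.9 and 8.98 FPKM (0.16) and Ostf1 at 67.9, 123 and 57.1 FPKM (0.17). In all, 9 genes lay within 0.2 of it. With 3 libraries this likeness is a description of the order and size of 3 values.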

How the data were processed

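RNA sequencing of 3 libraries, 1 per condition, was read from 1 gene table of 24401 loci. Cuffdiff (2.2.1.3) and Cufflinks (2.2.1.0) are named in the submitters' processing notes, with TopHat2 (2.1.0), Bowtie, the build mm10, FastQC (0.69) and Trim Galore (0.4.3.1). The gene annotation, the strand setting and how libraries were scaled to each other were not given in the sources used here. FPKM values are the authors', as deposited, and so are the log2 fold changes (without a pseudocount) and Cuffdiff's p-values and q-values, which with 1 library per condition compare libraries rather than conditions. The smallest p in the deposited table is 5e-05. Libraries were matched to conditions through the number that each label description gives.

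From the FPKM, log2 ratios were computed with a pseudocount of 1, which understates changes of low genes, using Python 3.11.15 and pandas 2.3.3. The size rule was a ratio of 2-fold or more at a mean of 1 FPKM or more. Where a symbol had several loci, that of the highest mean was used. No significance test was run here. The 10 genes and the lists were chosen with earlier results of these data known. Named genes are the members, 12 genes fixed by name, up to 3 per list by absolute log2 ratio, and the 5 nearest to the member with the largest ratio. Kdr, Hat1, Itga6, Angptl4, Siah1b, Siah2 and the marker genes (Dcn, Pdgfra and Col1a1 among them) were named besides, after their values were seen. Not all genes of the rule are printed, and 1 of them is not reported here. Alternatives were pseudocounts of 0.1 and 5, TPM over all or longer loci, median centring, a mean of 5 FPKM, no filter, sums over loci, a 1.5-fold threshold and a q-value of 0.01.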

Additional observations from a re-analysis of the deposited data

How the results depend on the processing

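No result could be recomputed without a replicate, and no paired analysis was possible because each condition is 1 library. The median log2 ratio of the members for conditioned media over control moved from 0.36 to 0.53 after rescaling to TPM over all loci, and that for resveratrol over control moved from 0.073 to 0.20 and, over longer loci, to -0.077. The number of members past the size rule in conditioned media over control went from 0 to 1 with TPM over all loci, median centring and a 1.5-fold threshold, in each case Ndrg1. For resveratrol over conditioned media it went from 1 to 0 at a pseudocount of 5 and with TPM over all loci, and to 2 at 1.5-fold, which adds Egln3. At a q-value of 0.01 the called members went from 7 to 6 in conditioned media over control, by the loss of Ddit4, and stayed at 8 and 6 in the other comparisons.

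Among the single genes reported here, those called by the authors that turned sign were Slc2a1 (0.11) and Atf4 (0.015) for conditioned media over control with TPM over all loci, and Pdk1 (-0.016) and P4ha1 (-0.077) for resveratrol over control with TPM over longer loci. Of 208 list medians recomputed, 172 moved by at most 0.1, 22 by more, and 14 turned sign. For conditioned media over control these were, with TPM over all loci, the degradation (0.099), secreted (0.13) and mTORC1 (0.050) lists, and over longer loci the chromatin (-0.076) and pyruvate dehydrogenase (-0.0511) lists. At a mean of 5 FPKM they were the receptor (-0.29) and chromatin (-0.026) lists, and without a filter the secreted (0.0084) and receptor (-0.11) lists. For resveratrol over conditioned media they were the degradation list with TPM over longer loci (-0.029) and without a filter (-0.053), and the chromatin list over longer loci (-0.0311), when centred (-0.00026) and at 5 FPKM (-0.25). Depth is unknown and limits what can be read from Epas1.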
